A study of Rattus norvegicus with 4 samples.

Results

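The BCL2 family is the group of proteins that decides whether the outer membrane of the mitochondrion stays closed or is opened during apoptosis. Members were taken as the rows of the deposited expression table whose gene symbol was 1 of 10 names, and the table held 8 of these 10 names among its 15731 genes. The 4 pro-survival names were Bcl2, Bcl2l1, Bcl2l2 and Mcl1, and the 6 pro-death names were Bax, Bak1, Bcl2l11, Bid, Bad and Bbc3. Mcl1 and Bbc3 had no row and were not analysed here, so 3 pro-survival and 5 pro-death genes remained. The values came from ventricular cardiomyocyte cultures of wild-type neonatal Wistar rats, labelled as postnatal day 1, although a protocol gives day 0. The cultures were transfected with a synthetic mimic of hsa-miR-25-3p, hsa-miR-93-5p or hsa-miR-106b-5p, or with cel-miR-67, a nematode miRNA that served as the control mimic. RNA was collected 72 h after transfection, and the dose is stated as 25 nM in one protocol and as 25 mM in another. Each mimic was represented by 1 library, so no difference had a replicate check and no test between conditions was possible. The question put to these genes was how each cluster mimic changed pro-survival against pro-death transcripts relative to the control mimic.

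In healthy cells the pro-survival proteins hold the effectors Bax and Bak1 in check at the mitochondrion. BH3-only proteins such as Bcl2l11 (Bim), Bid and Bad report stress to this system by binding pro-survival members or by activating Bax and Bak1, which then form pores and release cytochrome c. Cardiac muscle cells divide little after birth and depend on their mitochondria, and the pathway is known there for its part in cell loss after ischemia. Bcl2l11 is a reported target of the cluster that holds these miRNAs, which is transcribed from an intron of Mcm7.

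The mature sequences of the rat counterparts of the 3 mimics are shown because their seeds, the bases with which a miRNA pairs to its targets, divide the mimics into classes. They were taken from RefSeq on the GRCr8 build, all on the minus strand, at chr12:22157103-22157123, chr12:22156894-22156916 and chr12:22156652-22156673 in the order printed. They are written 5′ to 3′ with the seed, bases 2 to 8, in capitals.
rno-miR-106b-5p: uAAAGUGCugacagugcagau
rno-miR-93-5p: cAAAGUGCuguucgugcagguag
rno-miR-25-3p: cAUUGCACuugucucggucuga
The miR-106b and miR-93 seeds were the same at 7 of 7 positions, and the miR-25 seed matched either of them at 3 of 7 positions. The mimics carried the human sequences, which were not compared with these.

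Expression was given as RPKM, reads divided by the length of the gene model in kilobases and by the number of mapped reads. Sums and ratios of different genes therefore depend on the gene models used, such as 1179 bases for Bcl2 and 6487 for Bcl2l1. Ratios between libraries depend on the library sizes used for scaling, and the share of reads on listed genes differed between libraries. The numbers of reads behind the values were recovered from the steps in which RPKM values occur, and listed genes held between 15175185 and 18797234 reads per library, or 60.4% to 66.9% of the library size. Scaling to reads on listed genes instead would add 0.08 to every log2 ratio of miR-106b and 0.15 to those of miR-93 and of miR-25. The members had between 88 and 2195 reads per library. The study's methods state far fewer reads per sample than were recovered here. That difference was not resolved, and the intervals rest on the recovered reads. All 95% intervals given here cover counting error only and say nothing of the variation between cultures, which was not measured. A gene was called higher or lower with a mimic when its RPKM was above 1.0 in both libraries and its ratio to the control was past 1.3-fold, 0.38 on the log2 scale. The 8 cardiomyocyte markers were all above 1.0 RPKM in every library, and so were all 7 fibroblast and all 4 smooth muscle markers. Fewer cells of a type and less RNA per cell cannot be told apart in such cultures.

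The 3 mimics gave different patterns in the family. With miR-106b and miR-93, Bcl2l11 was higher by 2.30-fold and 3.59-fold and Bcl2l2 was lower. Bcl2 was higher by 1.36-fold after miR-106b but lower by 1.48-fold after miR-93, and Bad was higher by 1.32-fold after miR-93. With miR-25, Bax was higher by 2.05-fold, Bak1 was lower by 3.00-fold, and Bcl2l1 and Bid were higher. Bcl2l11 and Bcl2 were each lower by 1.44-fold after miR-25. Of the 8 listed members, 2 were called higher and 1 lower after miR-106b, against 11.9% higher and 12.7% lower among all 11296 genes tested. With miR-93, 2 were higher and 2 lower, against 15.1% and 15.6% of 11280 genes. With miR-25, 3 were higher and 3 lower, against 19.3% and 22.6% of 11198 genes. The median log2 ratio of the 8 members was 0.23 after miR-106b, -0.00 after miR-93 and -0.14 after miR-25, beside medians over all tested genes of -0.00, -0.00 and -0.01. Scaled to reads on listed genes, Bax and Bid also passed 1.3-fold after miR-106b, which made 4 members higher, and 1 member, Bcl2, in place of 2 was lower after miR-93. With an RPKM cutoff of 2.0, Bcl2l11 dropped out because its control level was below it, which left 1 member higher after miR-106b, Bcl2, and 1 after miR-93, Bad, and 2 members in place of 3 lower after miR-25. The call of Bcl2l11 as lower after miR-25 was also lost with a pseudocount of 1 RPKM, at a log2 ratio of -0.32.

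**Figure D1:**
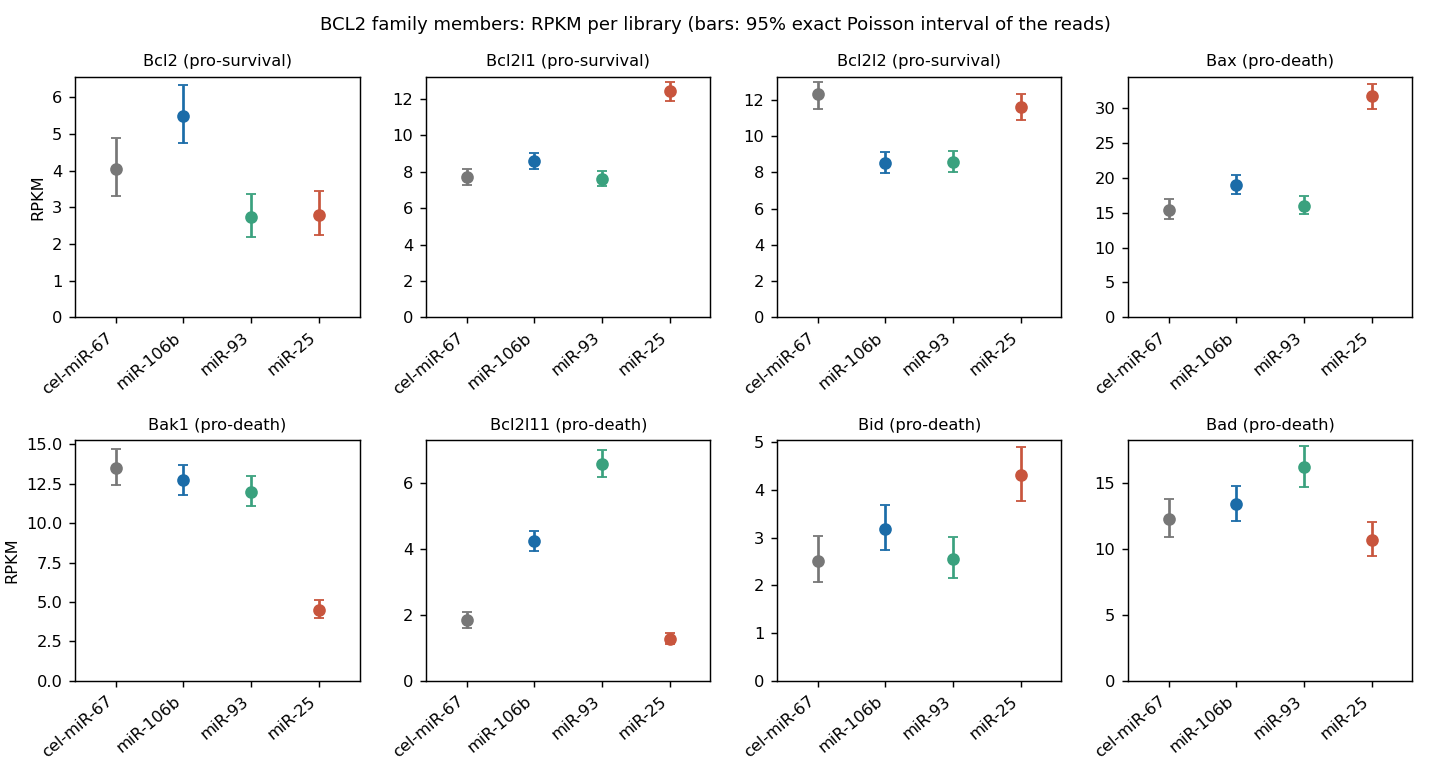
RPKM (vertical axes, linear from 0) of the 8 listed BCL2 family members in the 4 libraries (horizontal axes), 1 point per library, with bars for the 95% exact Poisson interval of the reads. Bcl2l11 spans 1.27 RPKM after miR-25 to 6.57 RPKM after miR-93, Bax reaches 31.6 RPKM after miR-25, and Bak1 drops to 4.51 RPKM after miR-25.

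Among the pro-survival members, Bcl2, the founding member of the family, had 4.04 RPKM after cel-miR-67, 5.50 after miR-106b, 2.73 after miR-93 and 2.80 after miR-25. It was highest after miR-106b, and the miR-93 and miR-25 libraries lay together below the control, within counting error of each other. The log2 ratio to the control was 0.45 after miR-106b (95% interval 0.10 to 0.80), -0.56 after miR-93 (-0.99 to -0.14) and -0.53 after miR-25 (-0.95 to -0.11). The Bcl2 intervals were the widest among pro-survival members, with 88 to 193 reads behind each value. All 3 Bcl2 ratios were past 1.3-fold, but each interval also reached into the range within 1.3-fold.

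Bcl2l1, which encodes the pro-survival protein Bcl-xL, had 7.70 RPKM with the control, 8.58 after miR-106b, 7.59 after miR-93 and 12.4 after miR-25. The miR-25 library stood above the other 3, and the control and miR-93 libraries did not differ beyond counting error. The log2 ratio was 0.69 after miR-25 (0.58 to 0.79), 0.16 after miR-106b (0.05 to 0.27) and -0.02 after miR-93 (-0.14 to 0.09). Bcl2l1-ps1, a pseudogene of it by its symbol, was listed separately at 1.29, 1.51, 1.64 and 4.72 RPKM in the order control, miR-106b, miR-93 and miR-25, from 15 to 66 reads. How reads shared by the gene and its copy were divided is not given in the sources used here, so the Bcl2l1 values carry that uncertainty.

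Bcl2l2, which encodes the pro-survival protein Bcl-w, had 12.3 RPKM with the control, 8.54 after miR-106b, 8.59 after miR-93 and 11.6 after miR-25. The libraries fell into a higher pair, control and miR-25, and a lower pair, miR-106b and miR-93, and neither pair differed within itself beyond counting error. The log2 ratio was -0.52 after miR-106b (-0.65 to -0.39) and -0.51 after miR-93 (-0.65 to -0.38), and the miR-25 ratio of -0.08 (-0.20 to 0.05) included no change. Of the 3 pro-survival members, 1 was called higher and 1 lower after miR-106b, none higher and 2 lower after miR-93, and 1 higher and 1 lower after miR-25. The shares over all genes were, in the same order of mimics, 11.9%, 15.1% and 19.3% higher and 12.7%, 15.6% and 22.6% lower, and with 3 genes the counts cannot be read as differing from them. Their medians were 0.16, -0.51 and -0.08.

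The effectors Bax and Bak1 both open the outer mitochondrial membrane, and either can do so without the other. Bax had 15.4 RPKM with the control, 19.0 after miR-106b, 16.0 after miR-93 and 31.6 after miR-25. The miR-25 library stood apart from the other 3. The log2 ratio after miR-25 was 1.04 (0.88 to 1.19), and those after miR-106b and miR-93 were 0.30 (0.14 to 0.47) and 0.06 (-0.12 to 0.23), within 1.3-fold. Bax was the most abundant listed member in every library except miR-93, where Bad was level with it, and it lay above 78.0% of listed genes with the control and above 89.7% after miR-25.

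Bak1 had 13.5 RPKM with the control, 12.7 after miR-106b, 12.0 after miR-93 and 4.51 after miR-25. The miR-25 library was again the library that stood apart, in the opposite direction to Bax. Its log2 ratio was -1.58 (-1.81 to -1.36), against -0.09 (-0.25 to 0.08) after miR-106b and -0.17 (-0.34 to -0.01) after miR-93. Bak1 went from above 75.4% of listed genes with the control to above 49.9% after miR-25. The Bak1 transcript amounted to 0.878 of the Bax level in RPKM with the control, 0.671 after miR-106b, 0.749 after miR-93 and 0.143 after miR-25. The sum of both effectors was 28.9 RPKM with the control, 31.7 after miR-106b, 28.0 after miR-93 and 36.1 after miR-25, so the sum varied less than either gene.

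The BH3-only member Bcl2l11, which binds every pro-survival member of the family, had the widest range between libraries. It had 1.83 RPKM with the control, 4.22 after miR-106b, 6.57 after miR-93 and 1.27 after miR-25. The levels ran from miR-93 over miR-106b and the control to miR-25, each neighbour apart beyond counting error, over a range of 2.37 on the log2 scale. The log2 ratio was 1.20 after miR-106b (0.99 to 1.42), 1.84 after miR-93 (1.64 to 2.05) and -0.53 after miR-25 (-0.80 to -0.25). Reads numbered 241 with the control, 728 after miR-106b, 1041 after miR-93 and 201 after miR-25, on a gene model of 5804 bases. For a transcript reported as a target of the cluster, the level was above the control with 2 mimics and below it with 1. In the RefSeq gene table of GRCr8 the gene overlaps Acoxl, which had at most 0.171 RPKM in these libraries. Bcl2, Bcl2l1 and Bak1 overlap genes without a row there, and whether reads were counted by strand is not given in the sources used here.

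Bid, which caspase-8 cuts to carry the death receptor signal to mitochondria, had 2.52 RPKM with the control, 3.19 after miR-106b, 2.55 after miR-93 and 4.31 after miR-25. The miR-25 library was above the other 3, which did not differ from their neighbours beyond counting error. The log2 ratio was 0.77 after miR-25 (0.44 to 1.11), 0.34 after miR-106b (-0.01 to 0.69) and 0.02 after miR-93 (-0.35 to 0.39). Bad, which survival kinases keep inactive by phosphorylation, had 12.3 RPKM with the control, 13.4 after miR-106b, 16.2 after miR-93 and 10.7 after miR-25. It was highest after miR-93, and of the other 3 libraries only miR-106b and miR-25 differed from each other beyond counting error. Its log2 ratio was 0.40 after miR-93 (0.18 to 0.62), just past 1.3-fold, and the ratios of 0.12 after miR-106b (-0.10 to 0.35) and -0.20 after miR-25 (-0.45 to 0.04) included no change. Of the 5 pro-death members, 1 was called higher and none lower after miR-106b, 2 higher and none lower after miR-93, and 2 higher and 2 lower after miR-25. Against the all-gene shares of 11.9%, 15.1% and 19.3% higher and 12.7%, 15.6% and 22.6% lower, counts of 1 or 2 among 5 genes are too few to read as a difference. Their medians were 0.30, 0.06 and -0.20.

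**Figure D2:**
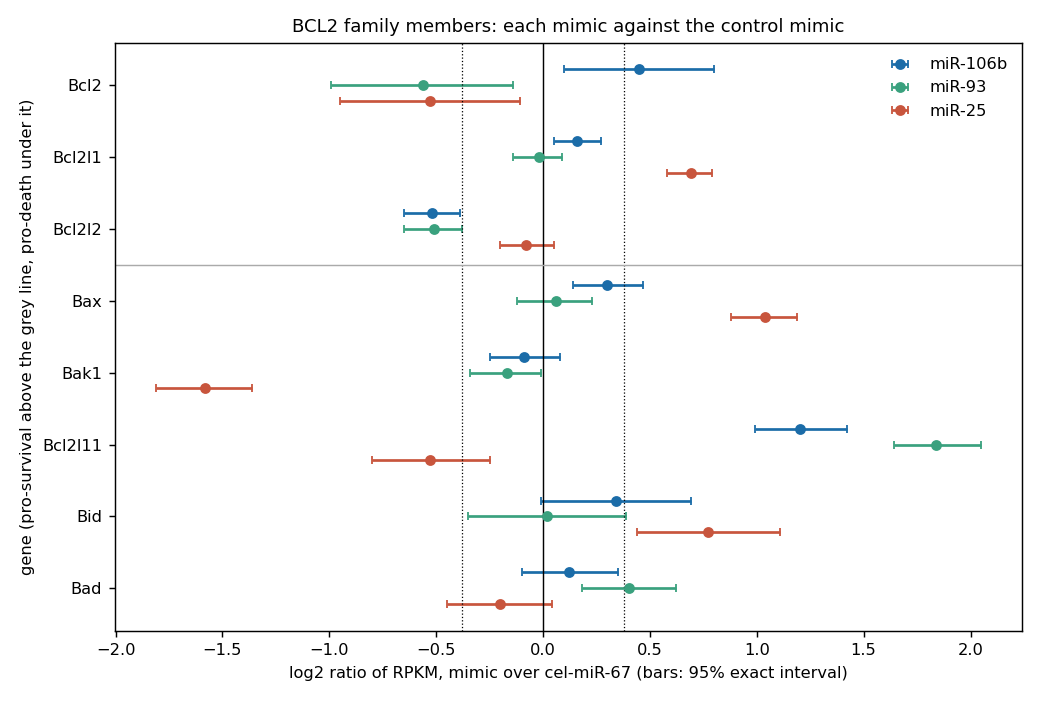
Log2 ratio of RPKM of each mimic over cel-miR-67 (horizontal axis) for the 8 listed members (vertical axis), pro-survival genes above the grey line and pro-death genes under it, with bars for the 95% exact interval and dotted lines at 1.3-fold in either direction. Bcl2l11 lies far to the right after miR-106b and miR-93 (1.20 and 1.84), and after miR-25 Bax (1.04) and Bak1 (-1.58) lie on opposite sides.

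The promoters of the BH3-only member and of the effector with the widest ranges, Bcl2l11 and Bak1, are shown as sequence context for the levels above. Both are RefSeq windows of 250 bases before to 50 bases after the gene start on GRCr8, printed 5′ to 3′ on the gene's strand, Bcl2l11 at chr3:135819792-135820091 on the plus strand and Bak1 at chr20:5110925-5111224 on the minus strand. Capitals mark matches on either strand to the motifs searched, which were the TATA box TATAAA, the CCAAT box CCAAT, the GC box GGGCGG, the E-box CACGTG, the forkhead motif GTAAACA, the E2F motifs TTTCCCGC and TTTGGCGC, and the p53 half-site.
Bcl2l11: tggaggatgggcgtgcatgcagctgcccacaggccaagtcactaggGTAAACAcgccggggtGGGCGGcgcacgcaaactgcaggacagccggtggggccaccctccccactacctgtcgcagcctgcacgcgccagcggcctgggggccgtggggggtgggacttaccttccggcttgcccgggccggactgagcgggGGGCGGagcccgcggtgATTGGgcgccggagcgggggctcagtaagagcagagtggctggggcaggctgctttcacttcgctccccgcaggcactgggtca
Bak1: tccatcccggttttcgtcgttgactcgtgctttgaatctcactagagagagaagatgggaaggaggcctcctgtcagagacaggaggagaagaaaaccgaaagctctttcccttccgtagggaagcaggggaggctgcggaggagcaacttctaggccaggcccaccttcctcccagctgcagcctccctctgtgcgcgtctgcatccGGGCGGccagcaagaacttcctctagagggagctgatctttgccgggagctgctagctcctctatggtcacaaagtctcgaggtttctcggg
The Bcl2l11 window held a forkhead match, 2 GC boxes and a CCAAT box on the reverse strand, and the Bak1 window held 1 GC box. Of the 33469 promoter windows of the same length in the table, 33.1% held the GC box, 37.5% the CCAAT box, 3.78% the forkhead motif, 14.2% the TATA box, 6.42% the E-box, 0.974% and 0.493% the E2F motifs and 7.98% the p53 half-site. GC content was 71.0% in the Bcl2l11 window and 57.7% in the Bak1 window. The matches are letters in a window, and no binding was measured here.

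The mimics were also set against each other, which leaves out the control library that the ratios above share. Between miR-93 and miR-106b, which have the same seed, 2 of 8 members were past 1.3-fold, beside 15.5% of all genes. Bcl2l11 was higher after miR-93 by 0.64 on the log2 scale (0.50 to 0.78) and Bcl2 was lower (-1.01, -1.39 to -0.64). The other 6 ratios lay between -0.32 for Bid and 0.27 for Bad, and that of Bcl2l2 was 0.01 (-0.13 to 0.15). The median size of the 8 log2 ratios was 0.26, against 0.15 over all genes.

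Between miR-25 and miR-106b, 7 of 8 members were past 1.3-fold, 4 higher and 3 lower, beside 45.1% of all genes. Bcl2l11 was lower after miR-25 by 3.32-fold (log2 -1.73, -1.96 to -1.50) and Bak1 by 2.83-fold (-1.50, -1.72 to -1.28). Bax was higher by 0.73 on the log2 scale (0.60 to 0.87), Bcl2l1 by 0.53 (0.44 to 0.63), Bcl2l2 by 0.44 (0.31 to 0.57) and Bid by 0.43 (0.15 to 0.72). Only Bad, at -0.33 (-0.55 to -0.11), was within 1.3-fold, and Bcl2 was lower at -0.97 (-1.35 to -0.61). Between miR-25 and miR-93, 7 of 8 members were again past 1.3-fold, 4 higher and 3 lower, beside 45.0% of all genes. Bcl2l11 was lower after miR-25 by 5.17-fold (-2.37, -2.59 to -2.15), Bak1 was lower (-1.41, -1.64 to -1.19) and Bax was higher (0.98, 0.84 to 1.12), while Bcl2 did not differ beyond counting error (0.04, -0.40 to 0.48). The median sizes of the 8 log2 ratios were 0.63 and 0.73, against 0.34 and 0.33 over all genes. At 1.5-fold, 4 members were past the cutoff over miR-106b and 6 over miR-93, and at 2-fold 2 in each comparison. Shares of all genes between mimics were computed at 1.3-fold only, so these counts have no background beside them. The counts depend on the cutoff, and with 8 genes they are not read as a difference from all genes.

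Pro-survival and pro-death transcripts were then summed in RPKM, with Mcl1 and Bbc3 outside both sums. The 3 pro-survival genes summed to 24.0 RPKM with the control, 22.6 after miR-106b, 18.9 after miR-93 and 26.8 after miR-25. The 5 pro-death genes summed to 45.6, 52.6, 53.3 and 52.3 RPKM in the same order. The pro-death sum was above the control with every mimic, and the pro-survival sum was below it after miR-106b and miR-93 only. The ratio of pro-survival to pro-death transcripts was 0.526 with the control, 0.430 after miR-106b, 0.355 after miR-93 and 0.512 after miR-25. Relative to the control this was a log2 difference of -0.29 after miR-106b (-0.43 to -0.15) and -0.57 after miR-93 (-0.71 to -0.43), and the difference of -0.04 after miR-25 (-0.17 to 0.09) included no change. Bcl2a1 was then added to the pro-survival sum, and Bok, Bmf, Bik and Pmaip1 to the pro-death sum. The differences became -0.14 after miR-106b, -0.28 after miR-93 and 0.16 after miR-25. Bok was the most abundant added gene in every library, at 36.2 RPKM with the control, 30.2 after miR-106b, 20.5 after miR-93 and 24.7 after miR-25. The sums with the added genes therefore rest largely on Bok, and they were not computed without it. Other listed relatives, such as Bnip3, Bnip3l and Bcl2l13, stayed outside both sums. After miR-106b, Bcl2l2 was the only pro-survival member below the control, so the lower pro-survival sum there came from that gene alone. The balance with Bcl2l2 left out was not computed, so the direction after miR-106b is given only for sums that include that gene. The miR-25 value rested on opposite members. Bax made up 33.8% of the pro-death sum with the control and 60.3% after miR-25, Bak1 went from 29.7% to 8.61%, and with Bax left out of the sum the miR-25 difference became 0.70, with Bak1 left out -0.42 and with Bcl2l1 left out -0.38. The Bax to Bcl2 ratio, often used as an index of commitment to apoptosis, was 3.81 with the control, 3.45 after miR-106b, 5.86 after miR-93 and 11.3 after miR-25, whereas the Bax to Bcl2l1 ratio stayed between 2.00 and 2.54. Transcript levels do not give the amount or the activity of the proteins.

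**Figure D3:**
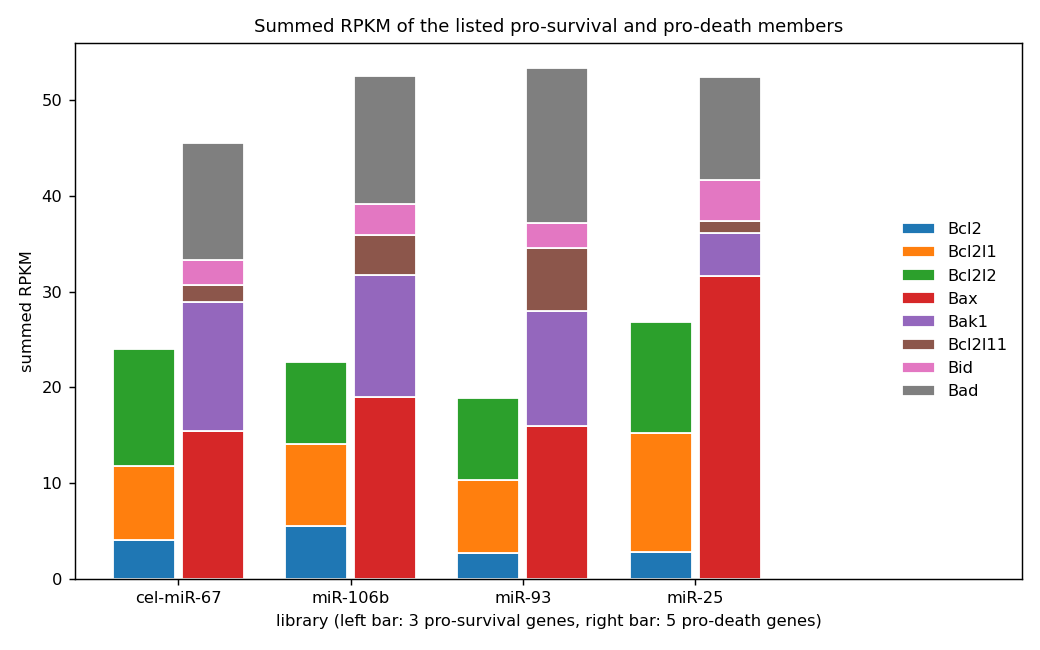
Summed RPKM (vertical axis, from 0) of the 3 listed pro-survival genes (left bar) and the 5 listed pro-death genes (right bar) in each of the 4 libraries (horizontal axis), with each gene's share as a coloured segment. The pro-death bars reach 45.6 RPKM after cel-miR-67 and 52.3 to 53.3 RPKM with the 3 mimics, and Bax fills 60.3% of the miR-25 bar.

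Markers of cell types moved as well, most widely after miR-25. The summed RPKM of the 8 cardiomyocyte markers was 12848 with the control, 12937 after miR-106b, 10623 after miR-93 and 6931 after miR-25, with 8 of 8 past 1.3-fold lower after miR-25. The 7 fibroblast markers summed to 815, 634, 739 and 307 RPKM, with 7 of 7 lower after miR-25. The 4 smooth muscle markers summed to 745, 686, 583 and 2051 RPKM, with 4 of 4 higher after miR-25. Over all genes, 19.3% were higher and 22.6% lower after miR-25. After miR-106b, 2 cardiomyocyte, 4 fibroblast and 1 smooth muscle markers were lower, and after miR-93 3, 3 and 2. Those higher numbered 1, 0 and 1 after miR-106b and 1, 0 and 0 after miR-93. The 5 listed of 6 endothelial markers summed to 4.50, 4.31, 4.97 and 4.01 RPKM, with a median log2 ratio of -0.63 after miR-25 and 4 lower and 1 higher. The 5 macrophage markers summed to 8.31, 7.76, 9.13 and 5.08 RPKM, with a median of -0.85 after miR-25 and 3 lower and none higher. These marker counts take any level, and only 2 markers of each of these last lists were above 1.0 RPKM after miR-25. None of the listed markers was at 0 in any library. Beside the miR-25 values of Bax, Bak1, Bcl2l1, Bid and Bcl2l11, and the member values with the other mimics, these shifts stand as measured. Their part in the results was not tested.

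The other genes of the apoptosis pathway were given by 7 lists with 50 genes, of which 47 had a single row. Over all lists, 5 of 41 tested genes were called higher and 4 lower after miR-106b, 10 of 41 higher and 5 lower after miR-93, and 10 of 43 higher and 8 lower after miR-25. These were 12.2% higher and 9.76% lower after miR-106b, 24.4% and 12.2% after miR-93, and 23.3% and 18.6% after miR-25, against shares over all tested genes of 11.9% and 12.7%, 15.1% and 15.6%, and 19.3% and 22.6%. The shares after miR-106b and miR-25 were near this background. The share higher after miR-93 was above it at 1.3-fold. At 1.5-fold, 3 of the 41 genes were higher after miR-93, beside 781 of all 11280, so no difference is read from the count. The medians were 0.02, 0.10 and 0.08, against -0.00, -0.00 and -0.01 over all genes.

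Of the other BCL2 family genes, 9 of 11 listed were tested. Of these, 2 were higher after miR-106b, 3 higher and 2 lower after miR-93, and 3 higher and 2 lower after miR-25. The shares over all genes were 11.9%, 15.1% and 19.3% higher and 12.7%, 15.6% and 22.6% lower, in the same order of mimics. With the few tested genes of this list and of each list below, no count is read as differing from these shares. Pmaip1 (Noxa), a BH3-only protein that binds Mcl1 and is known, like Bax, as a p53 target, had 4.47 RPKM with the control, 5.43 after miR-106b, 4.77 after miR-93 and 11.1 after miR-25, a log2 ratio of 1.31 after miR-25 (1.12 to 1.51). Bnip3l, a mitophagy receptor, was higher with all 3 mimics, at 0.49 after miR-106b, 0.40 after miR-93 and 0.96 after miR-25 (0.82 to 1.09). Bnip3, at 32.8 RPKM in the control, was lower after miR-93 (-0.53, -0.65 to -0.41) and higher after miR-25 (0.43, 0.33 to 0.54). After miR-106b it was below the control but within 1.3-fold (-0.34, -0.45 to -0.22). Bok, a relative of the effectors, had 36.2 RPKM in the control and was lower after miR-93 (-0.82, -0.94 to -0.70) and miR-25 (-0.55, -0.66 to -0.44). Bmf, another BH3-only gene, was higher after miR-93 (0.57, 0.30 to 0.84). Bik was higher after miR-106b (0.50, -0.03 to 1.04) and miR-93 (0.70, 0.18 to 1.24) and lower after miR-25 (-0.50, -1.14 to 0.14). Its intervals after miR-106b and miR-25 included no change.

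Downstream of the mitochondrion, the list of the apoptosome and caspases had 2 genes higher and 3 lower after miR-106b and 3 higher and 2 lower after miR-93. After miR-25, 4 were higher and none lower. This was 36.4% and 0% of 11 tested genes, beside 19.3% and 22.6% of all genes, and too few genes to read as a difference. Aifm1, a flavoprotein of the intermembrane space that can move to the nucleus in cell death, had 40.9 RPKM with the control, 20.1 after miR-106b, 18.4 after miR-93 and 39.4 after miR-25. The miR-106b and miR-93 libraries lay together below the control and miR-25 libraries, with log2 ratios of -1.02 (-1.12 to -0.93) and -1.15 (-1.25 to -1.05). Diablo, which relieves caspase inhibition, was lower with the same mimics (-0.45 and -0.42). Casp6 and Endog, a caspase and a mitochondrial nuclease, were higher with all 3 mimics, between 0.47 and 0.70 for Casp6 and between 0.47 and 0.85 for Endog. Casp8, the caspase that cuts Bid, had 1.28 RPKM with the control and 2.58 after miR-25, a log2 ratio of 1.01 (0.57 to 1.45), and was under 1.0 RPKM after miR-106b and miR-93.

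Among the inhibitor of apoptosis proteins, Birc5 (survivin), which also serves in cell division, had 6.82 RPKM with the control, 18.6 after miR-106b, 14.0 after miR-93 and 3.36 after miR-25. It was above the control after miR-106b (1.44, 1.17 to 1.73) and miR-93 (1.03, 0.74 to 1.33) and below it after miR-25 (-1.02, -1.44 to -0.61). Xiap, which blocks caspases directly, was higher after miR-25 (0.45, 0.30 to 0.61), and no other gene of that list was called among the 4 tested. In the death receptor pathway, none of 6 tested genes was called after miR-106b, 2 of 6 were higher after miR-93, and 2 of 7 were higher and 1 lower after miR-25. The death receptor Fas had 1.78 RPKM with the control, 2.00 after miR-106b, 2.67 after miR-93 and 4.80 after miR-25, log2 ratios of 0.58 after miR-93 (0.23 to 0.95) and 1.43 after miR-25 (1.11 to 1.76). Tradd, an adaptor of tumour necrosis factor receptors, was the other gene called higher after miR-25 (0.61, 0.23 to 1.00), and Fadd, the adaptor that links Fas to Casp8, was the gene called lower (-0.39, -0.80 to 0.02).

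The 3 VDAC channels of the outer membrane had no call after miR-106b or miR-93, and Vdac1 (-0.40, -0.46 to -0.34) and Vdac3 (-0.51, -0.55 to -0.46) were lower after miR-25. Of the 4 genes that control Mcl1 turnover, 1 was called, Btrc after miR-93 (0.47, 0.34 to 0.59). Of the 5 tested inducers of BH3-only genes, E2f1 was lower with all 3 mimics. It had 3.63 RPKM with the control, 2.02 after miR-106b, 2.45 after miR-93 and 1.38 after miR-25, log2 ratios of -0.85 (-1.07 to -0.63), -0.57 (-0.78 to -0.35) and -1.40 (-1.66 to -1.14). Ddit3 (CHOP), a stress factor that can induce Bcl2l11, was lower after miR-25 (-0.50, -0.66 to -0.34).

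**Figure D4:**
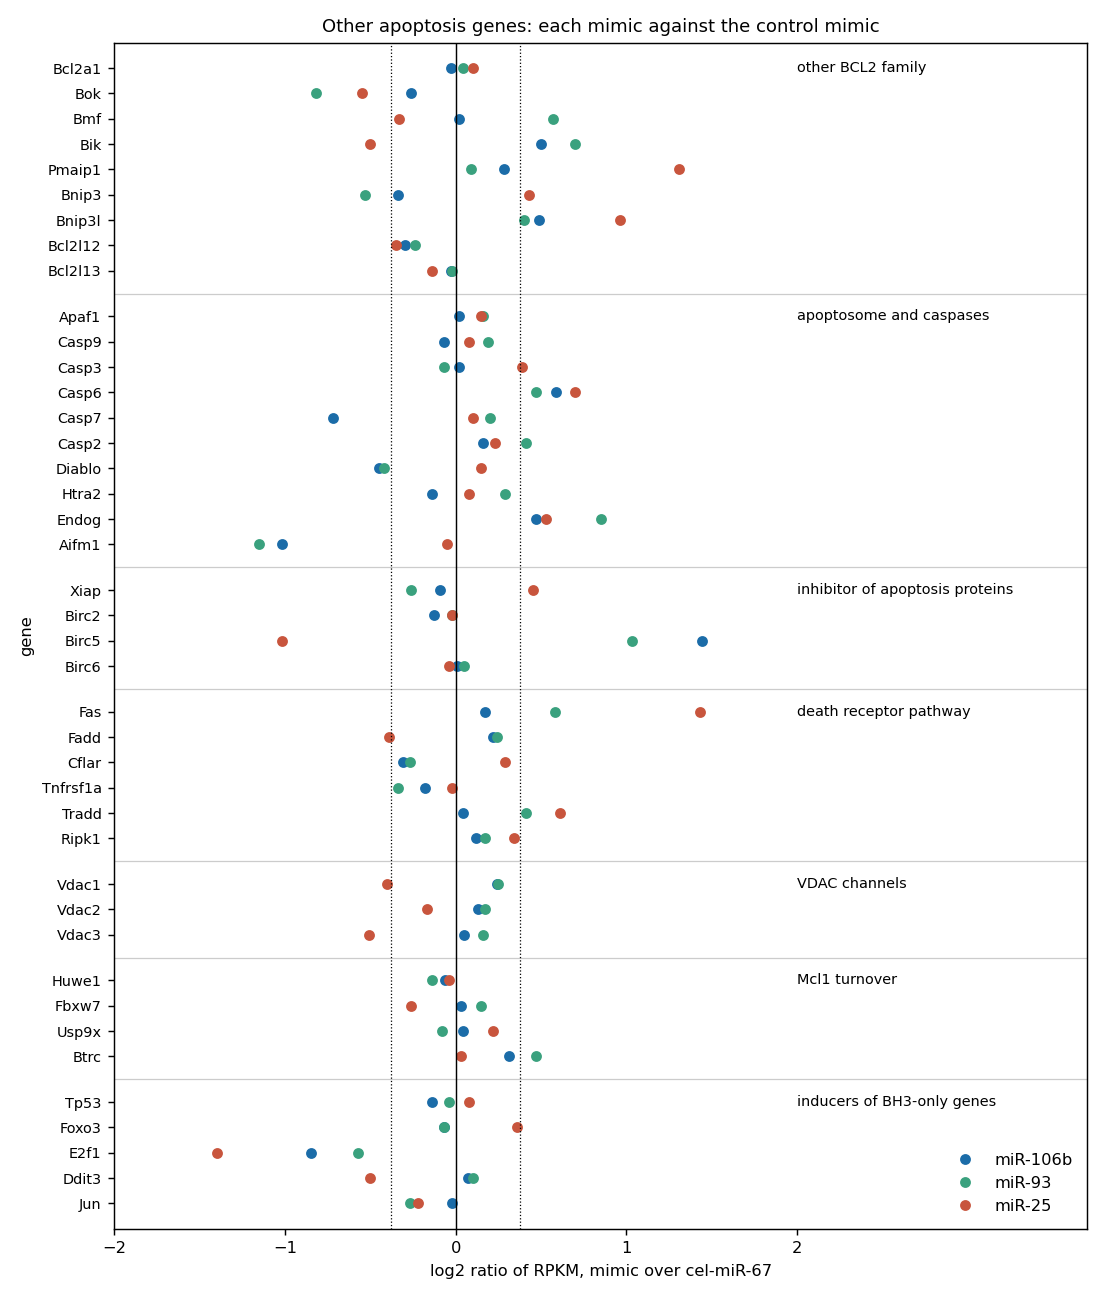
Log2 ratio of RPKM of each mimic over cel-miR-67 (horizontal axis) for the 41 other apoptosis genes tested with all 3 mimics (vertical axis), grouped by list, with dotted lines at 1.3-fold in either direction. Most points lie between the dotted lines, Birc5 lies far right after miR-106b (1.44) and miR-93 (1.03) and far left after miR-25 (-1.02), Aifm1 far left after miR-106b and miR-93, and Fas (1.43) and Pmaip1 (1.31) far right after miR-25.

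The genes whose pattern over the 4 libraries was nearest to that of Bcl2l11 were found by the Euclidean distance between log2 RPKM values, centred per gene, among 10700 genes with RPKM above 1.0 in all libraries. Fitm1, which encodes a protein of fat storage, was nearest at a distance of 0.08, with 3.59, 7.94, 13.1 and 2.36 RPKM in the order control, miR-106b, miR-93 and miR-25. Eno3, the muscle enolase of glycolysis, followed at 0.12 with 20.5, 44.2, 67.5 and 12.7 RPKM, and LOC102554591 at 0.27 with 45.9, 87.5, 128 and 27.5 RPKM. Each was highest after miR-93 and lowest after miR-25, as Bcl2l11 was. With 4 libraries this likeness is a description only.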

How the data were processed

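Total RNA of the 4 cultures was sequenced, 1 library per mimic. As the study's methods and the labels state, the authors checked reads with FASTQC, trimmed them with Cutadapt, aligned them to Rnor_6.0 with STAR 2.7 and computed the deposited RPKM values from rounded gene counts with edgeR's rpkm function. The counting program is not given in the sources used here. The RPKM values were mapped to mimics by column name, and no column was left unmapped.

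Whole reads were recovered for all 15731 genes from the steps of the RPKM values (Python 3.11.15, numpy 2.4.6, pandas 2.3.3, scipy 1.17.1, matplotlib 3.10.9), after a check on simulated data. Ratios were taken without a pseudocount for genes above 1.0 RPKM in both libraries. Their 95% intervals are Clopper-Pearson intervals of the share of reads, and that of the summed balance is a normal approximation from Poisson errors. With 1 library per mimic no test was run. Symbols listed more than once (176) were left out of the lists.

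The named genes are the members, every listed pathway gene past 2-fold and others past 1.3-fold with a mimic, and the 3 genes nearest to Bcl2l11. Markers were used as list sums. The members and lists were chosen with earlier results of these data known. Alternatives were other RPKM and fold cutoffs, pseudocounts, scalings, ways to form the balance, and genes left out of it.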

Additional observations from a re-analysis of the deposited data

How the results depend on the processing

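No paired analysis was possible because each mimic had 1 library, and for the same reason no replicate could be left out. No called member log2 ratio changed direction. Of 96 member log2 ratios under other pseudocounts or scalings, 90 moved by less than their counting error and 6 by more. The 6 were Bcl2l11 with a pseudocount of 1 RPKM (0.88 after miR-106b, 1.42 after miR-93) and, scaled to reads on listed genes, Bcl2l1 (0.12 after miR-93, 0.84 after miR-25) and Bcl2l2 (-0.37 and 0.07). Members called higher after miR-106b numbered 2, and 1 with RPKM above 2.0, with a fold cutoff of 1.5 or 2 or with a pseudocount of 1, and 4 when scaled to reads on listed genes. Those lower numbered 1, and 0 at 1.5-fold or 2-fold. With miR-93, 2 were higher, and 1 with RPKM above 2.0, at 1.5-fold, at 2-fold or with a pseudocount of 1, and 2 were lower, and 0 at 1.5-fold or 2-fold and 1 when scaled. With miR-25, 3 were higher, and 1 at 2-fold, and 3 were lower, and 1 at 1.5-fold or 2-fold and 2 with RPKM above 2.0 or with a pseudocount of 1, where Bcl2l11 lost its call. At 1.5-fold, pathway genes called higher went from 5, 10 and 10 to 2, 3 and 6, and those lower from 5 to 2 after miR-93 and from 8 to 2 after miR-25. Calls over all genes went at 1.5-fold to 588 higher and 647 lower after miR-106b, 781 and 942 after miR-93 and 1189 and 1538 after miR-25, and at 2-fold to 139 and 150, 192 and 289, and 360 and 561, from 1339 and 1437, 1707 and 1762, and 2166 and 2532. These fall with the stricter cutoffs by construction.

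The median of pro-survival members became -0.37 after miR-93 and 0.07 after miR-25 when scaled to reads on listed genes. The balance after miR-106b was -0.14 once Bcl2a1, Bok, Bmf, Bik and Pmaip1 were added, and it was not computed without Bcl2l2. With miR-93 it was -0.79 from mean log2 RPKM, -0.28 with the same added genes, -0.75 without Bcl2l1 and -0.71 without Bak1. With miR-25 it was 0.13 from mean log2 RPKM, 0.16 with the same added genes and -0.38 without Bcl2l1. It was 0.70 without Bax and -0.42 without Bak1, so no direction can be given for miR-25. Between mimics, members past the fold became 1 at 2-fold for miR-93 over miR-106b, 4 at 1.5-fold and 2 at 2-fold for miR-25 over miR-106b, and 2 at 2-fold for miR-25 over miR-93. The shares of all genes between mimics were not computed at 1.5-fold or 2-fold. The sums without single genes and the cutoffs between mimics were chosen after the data were seen. The cause of these shifts was not tested, and counting error was widest for Bcl2 and Bid.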
